A study of Mus musculus with 6 samples.

Results

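The 53 genes described here encode enzymes and regulators that burn fatty acids, make them, or handle pyruvate and the citric acid cycle. Rows were taken from the count tables by exact gene symbol, and all 53 were among the 23337 symbols of each table. A filter on low counts left 52 of them among 13017 genes tested, and the muscle-type carnitine acyltransferase Cpt1b did not pass it. RNA was sequenced from whole pancreas of NMRI mice at postnatal day 7, with 3 libraries per group. Control mice were Ptf1a cre/+, that is, they carried a Cre recombinase allele at Ptf1a, a gene of pancreatic progenitors and acinar cells. Mutant mice carried the same Ptf1a cre/+ allele and in addition CAG-loxP-STOP-loxP-Prox1-LacZ, a transgene with the broadly active CAG promoter that makes Prox1 and LacZ once Cre has removed the stop. Recombination follows the Ptf1a-Cre lineage, so other cells of the organ are not targeted, and both groups share the Cre allele. The sources conflict on pooling, since the design text speaks of pools for the controls and of single pancreata for the mutants, whereas the extraction protocol of the samples speaks of single pancreata. Whether a control library stands for 1 animal or several is therefore not known, and neither is what the control SDs (n = 3) measure. If only the controls were pooled, pooling and genotype cannot be told apart. No source ties samples to litters, so p-values measure the spread between these 6 samples, which may be technical in part.

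Long-chain fatty acids are coupled to coenzyme A by acyl-CoA synthetases, carried into mitochondria by the carnitine shuttle and cut down to acetyl-CoA by beta-oxidation, with a parallel chain in peroxisomes. Fatty acid synthesis runs the other way in the cytosol, from citrate through acetyl-CoA and malonyl-CoA to palmitate, which elongases and desaturases then modify. Pyruvate enters the citric acid cycle through pyruvate dehydrogenase, which pyruvate dehydrogenase kinases switch off, or through pyruvate carboxylase, which refills oxaloacetate. The day 7 pancreas is largely made of acinar cells that secrete digestive enzymes, in a suckling animal whose diet is rich in milk fat.

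Values are CPM, counts scaled to the size of each library, here with the trimmed mean of M values (TMM). Total counts lay between 7304727 and 10773223 per library, and 1 CPM stood for between 6.65 and 10.5 counts. Prox1 was at 10.8, 7.84 and 9.13 CPM in control libraries and 25.5, 31.3 and 30.9 in mutant libraries, so every library labelled mutant lay above every control. Control 1 was the only library with Xist in number (7110 counts, against at most 4 in the others) and without Y-linked counts, so 1 library of 6 differed in sex. Mutant 2 stood apart in markers that are foreign to the pancreas epithelium. Its 12 muscle markers summed to 81.6 CPM, against 4.51 to 11.8 CPM in the other 5 libraries, and its 8 lymphocyte markers to 101 CPM, against 7.09 to 29.0 CPM.

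Of the 52 tested members, 4 fell and 0 rose in mutants at an adjusted p under 0.05 by the quasi-likelihood test of edgeR. Over all genes tested 1.51% fell, 0.545% rose and 2.06% were called in either direction. At an unadjusted p under 0.05, 13 members were lower and 1 was higher, 14 of 52, against 12.8% of all genes. Of all 13017 genes, 958 were lower and 704 higher at that p. The 4 that fell were Scd1, a stearoyl-CoA desaturase that makes oleate, Pcx, pyruvate carboxylase, Acot1, a cytosolic acyl-CoA thioesterase, and Acsl5, a long-chain acyl-CoA synthetase. The 2 groups of libraries did not overlap in 11 members, with mutants above in 1 and below in 10, against 19.0% of all genes (9.13% above and 9.86% below). The median log2 fold change, mutant over control, was -0.03 over the members and 0.00 over all genes, and 44 of 52 members differed by less than 0.5 on that scale. Under library totals alone all genes had a median of 0.17 and the members one of 0.14, and the members called became Scd1 and Pcx alone. The count of members that fell was 5 without control 1, 0 without control 2, 0 without control 3, 1 without mutant 1, 4 without mutant 2 and 1 without mutant 3, and it was 6 without control 1 and mutant 2 together.

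**Figure D1:**
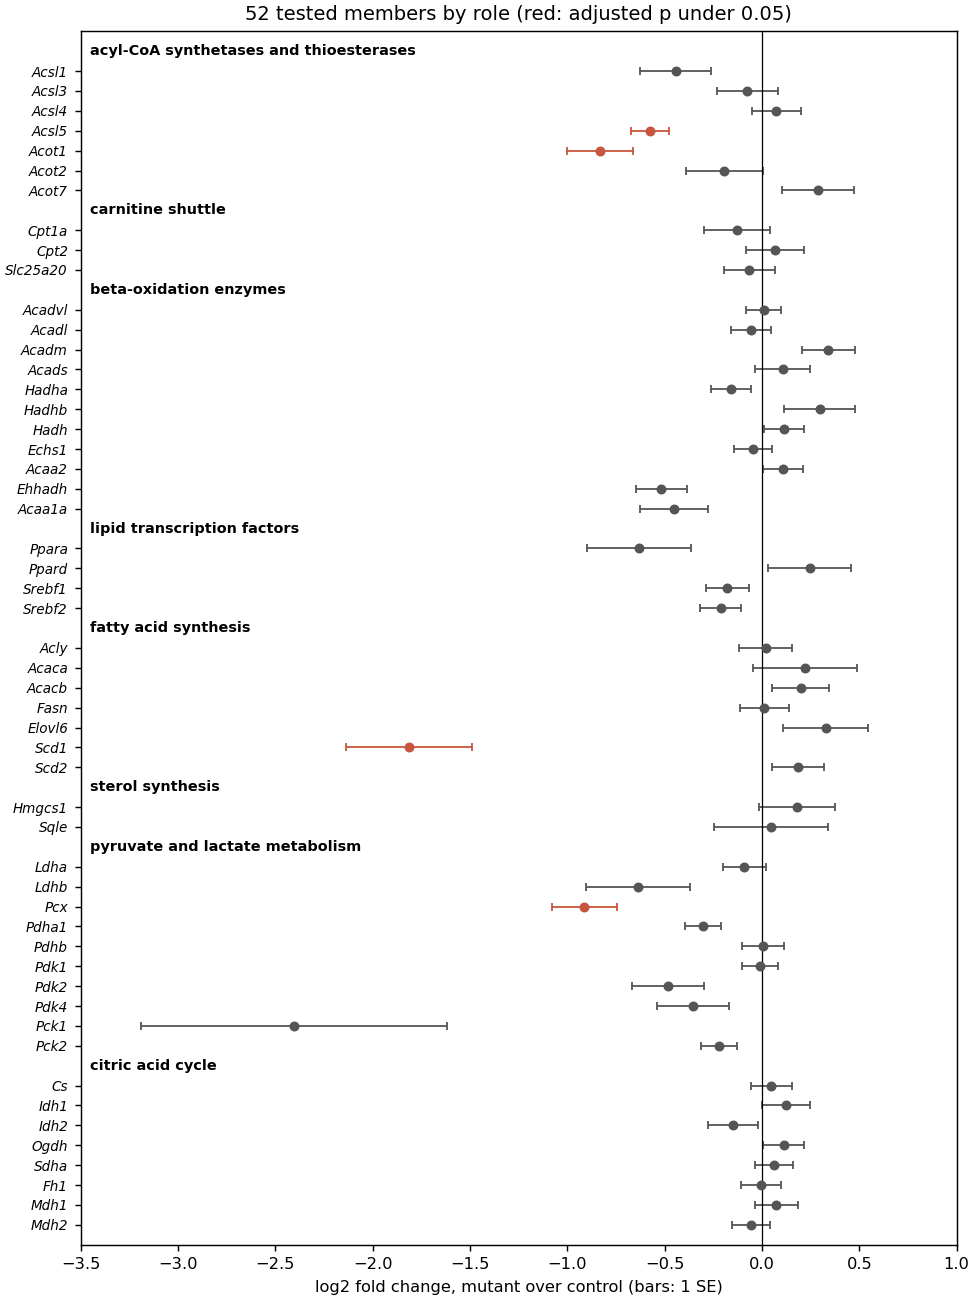
Log2 fold change of mutant over control (horizontal axis, with 1 SE) for the 52 tested members, grouped by role. The 4 red points, Acsl5, Acot1, Scd1 and Pcx, passed an adjusted p of 0.05 and lie between -0.57 and -1.81, whereas the 8 citric acid cycle genes lie between -0.15 and 0.12.

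Promoter windows of the genes that fell are shown because these members changed in 1 direction. The RefSeq table (GRCm38.p6) held windows from 250 bases before to 50 bases after a start site for 48 of the 53 members, 61 windows in all. Scd1, Scd2, Sqle, Acaa2 and Cpt1b had none. Capitals mark matches, on either strand, to AGGTCA (the core element of nuclear receptors), that element repeated after 1 base of any kind (which therefore contains it), TCACNCCAC (a sterol regulatory element), CCAAT (the CCAAT box) and CACGTG (an E-box).
Acsl5, chr19:55253119-55253418, + strand: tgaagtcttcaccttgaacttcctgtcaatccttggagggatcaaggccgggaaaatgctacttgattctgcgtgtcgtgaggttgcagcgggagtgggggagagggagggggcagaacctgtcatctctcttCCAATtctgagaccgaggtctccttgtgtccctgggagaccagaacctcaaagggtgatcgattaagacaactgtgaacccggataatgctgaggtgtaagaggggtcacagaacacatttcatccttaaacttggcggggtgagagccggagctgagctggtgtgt
Acot1, chr12:84009252-84009551, + strand: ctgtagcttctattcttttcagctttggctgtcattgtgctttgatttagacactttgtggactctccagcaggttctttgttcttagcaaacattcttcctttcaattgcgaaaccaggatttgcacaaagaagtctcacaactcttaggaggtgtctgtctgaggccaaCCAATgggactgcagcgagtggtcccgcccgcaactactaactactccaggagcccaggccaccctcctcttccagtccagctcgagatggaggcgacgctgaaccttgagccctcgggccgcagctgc
Pcx, upstream start, chr19:4510222-4510521, + strand: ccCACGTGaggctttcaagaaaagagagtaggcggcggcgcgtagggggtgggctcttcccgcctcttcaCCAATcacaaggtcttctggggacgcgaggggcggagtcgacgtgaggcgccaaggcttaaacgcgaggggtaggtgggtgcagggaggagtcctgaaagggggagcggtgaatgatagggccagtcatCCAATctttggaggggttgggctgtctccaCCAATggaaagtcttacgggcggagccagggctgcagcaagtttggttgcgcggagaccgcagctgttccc
Pcx, downstream start, chr19:4594069-4594368, + strand: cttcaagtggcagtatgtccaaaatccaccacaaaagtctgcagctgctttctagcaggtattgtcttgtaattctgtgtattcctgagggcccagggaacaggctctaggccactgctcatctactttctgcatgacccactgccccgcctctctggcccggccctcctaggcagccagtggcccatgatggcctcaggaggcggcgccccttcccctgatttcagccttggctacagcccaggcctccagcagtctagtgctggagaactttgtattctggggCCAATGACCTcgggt

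All 4 windows shown, 2 of them of Pcx, held CCAAT, and Scd1, which also fell, had no window. CCAAT occurred in 36 of the 61 member windows (59.0%) and in 37.4% of the 32851 windows of all genes. The upstream Pcx window held it 3 times and also held the E-box, found in 9.84% of member windows and 7.15% of all windows. In the downstream Pcx window 1 CCAAT overlapped an AGGTCA, which was present in 19.7% of member windows and 16.3% of all windows. The sterol regulatory element was found in the windows of Acsl1, Ehhadh and Hmgcs1, that is, in 4.92% of member windows and 1.24% of all windows, and the direct repeat in 0 member windows and 0.0396% of all windows. The counts do not separate the 2 starts of Pcx.

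Acyl-CoA synthetases load fatty acids onto coenzyme A, and acyl-CoA thioesterases split them off again. In this group of 7 genes 2 fell, 0 rose and 5 did not pass, with a median log2 fold change of -0.19. Over all genes 1.51% fell and 0.545% rose. Acsl5 was at 51.1, 57.8 and 52.5 CPM in controls 1 to 3 and at 38.5, 34.9 and 35.0 CPM in mutants 1 to 3. All mutants lay below all controls, and the spread within each group was small. Its mean fell from 53.8 ± 3.52 CPM (SD, n = 3) to 36.1 ± 2.01 CPM, a 1.49-fold drop (-0.57 ± 0.10 on the log2 scale, with its SE, at an edgeR adjusted p of 0.0142). Acot1 was at 11.6, 13.9 and 15.1 CPM in control libraries and 7.71, 6.27 and 8.88 in mutant libraries. Again no mutant reached the lowest control. The mean fell from 13.5 ± 1.79 to 7.62 ± 1.31 CPM, 1.78-fold lower (-0.83 ± 0.17, edgeR adjusted p = 0.0359).

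Both calls were lost in several fits that left out 1 library, while the fold changes stayed between -0.52 and -0.62 for Acsl5 and -0.71 and -0.96 for Acot1. Calls over all genes changed too, from 268 to 125 without control 2, 140 without control 3 and 301 without mutant 2. For Acsl5 the edgeR adjusted p was 0.0942 without control 2, 0.0528 without control 3, 0.0873 without mutant 3 and 0.0830 with library totals alone. For Acot1 it was 0.154, 0.146, 0.137, 0.0672 and 0.0566 without control 2, control 3, mutant 1, mutant 2 and mutant 3, and 0.0733 with library totals alone.

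The neighbouring gene Acot2 encodes the mitochondrial form of the thioesterase and lies just upstream of Acot1 on chromosome 12. Its level, 6.53 ± 0.378 CPM in control and 5.73 ± 1.14 CPM in mutant libraries, did not pass (-0.19 ± 0.20, edgeR adjusted p = 0.766). For each 100 counts of Acot2 there were 188, 214 and 218 counts of Acot1 in controls and 162, 115 and 127 in mutants. This ratio does not depend on the scaling, and its groups did not overlap. It was formed from the counts that gave the Acot1 call, so it is no separate evidence for that call. The difference in ratio had p = 0.1 (exact permutation test, two-sided), the lowest value 3 against 3 can reach. Benjamini-Hochberg adjustment of this test over 5 gene pairs gave 0.167. The 5 include Hadhb and Hadha, a pair added after its values were seen, which entered the adjustment. As p cannot be lower, the test cannot decide whether the ratio differed. Of the 50-base stretches in Acot1 transcripts 19.2% also occur in other genes, 13.6% in Acot2, so some reads of this pair may have been lost or exchanged in the counting. Acsl1, the main synthetase of fat, liver and heart, was at 24.2, 40.9 and 42.4 CPM in control libraries and 27.7, 26.7 and 25.4 in mutant libraries. Control 1 lay below every mutant and the other 2 controls above, and Acsl1 did not pass (-0.44 ± 0.18, edgeR adjusted p = 0.336). Without control 1 it passed, at -0.65 and an edgeR adjusted p of 0.0153. The brain-rich forms Acsl3 (-0.08 ± 0.16) and Acsl4 (0.07 ± 0.12, a synthetase with a preference for arachidonate) and the thioesterase Acot7 (0.29 ± 0.19) did not pass.

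**Figure D2:**
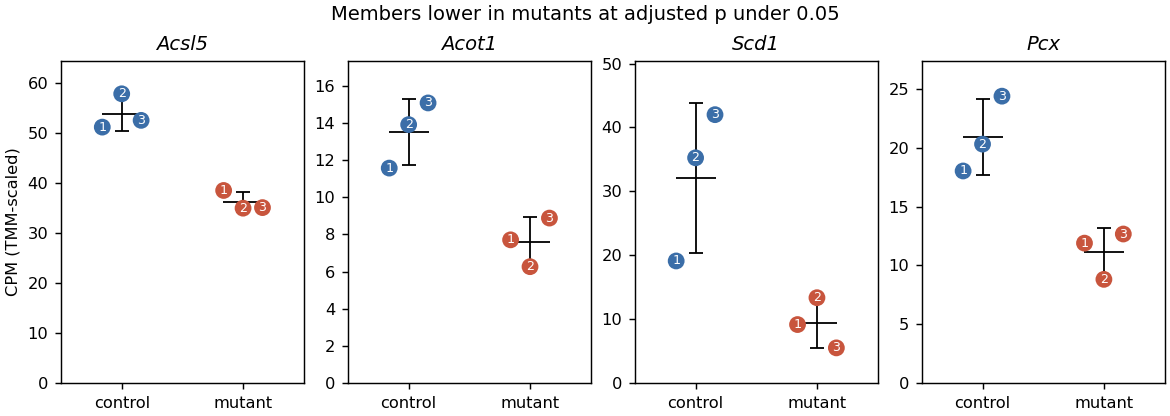
CPM in each library for the 4 members that fell, with circles numbered by replicate (blue, control, red, mutant) and the mean and SD of 3 libraries per group. In all 4 panels every mutant lies below every control, and control 1, the library that differed in sex, is the control nearest to the mutants (19.1 CPM for Scd1).

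The carnitine shuttle moves long-chain acyl groups across the inner mitochondrial membrane, and Cpt1a, the liver-type acyltransferase of the outer membrane, is its regulated step. None of its 3 tested genes was called, against 2.06% of all genes. Cpt1a was at 87.7, 122 and 124 CPM in control libraries and 103, 80.8 and 122 in mutant libraries. The groups overlapped throughout (-0.13 ± 0.17, edgeR adjusted p = 0.836). Cpt2, the acyltransferase of the inner membrane, measured 22.6, 24.7 and 24.3 CPM in the controls, and 27.0, 19.0 and 28.9 CPM in the mutants (0.07 ± 0.15, edgeR adjusted p = 0.914). Slc25a20, the carnitine-acylcarnitine carrier between them, measured 18.6, 16.7 and 17.9 CPM in the controls, and 14.9, 16.6 and 19.3 CPM in the mutants (-0.06 ± 0.13, edgeR adjusted p = 0.904). In both genes the mutants lay on either side of the controls. The muscle form Cpt1b had between 0 and 3 counts in every library. Its transcripts share 78.6% of their 50-base stretches with the read-through gene Gm44502, so its counts may be too low.

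Beta-oxidation cuts acyl-CoA in 4 steps, by dehydrogenases, hydratases, hydroxyacyl-CoA dehydrogenases and thiolases. Of the 11 genes 0 were called, which is near the 2.06% of all genes called. Their median log2 fold change was 0.01. The chain-length series of dehydrogenases spread little. Acadvl, for very long chains, had 0.01 ± 0.09, Acadl, for long chains, -0.06 ± 0.10, and Acads, for short chains, 0.11 ± 0.14. Acadm, for medium chains, was the 1 member whose mutants all lay above the controls, at 21.1, 30.2 and 27.8 CPM in control libraries and 31.8, 32.5 and 36.3 in mutant libraries (0.34 ± 0.14, edgeR adjusted p = 0.322). It did not pass, and control 1 was the farthest from the mutants. Of the exon bases of Acadvl 42.9% overlap Dvl2 on the other strand. The strand setting of the counting is not known, so the Acadvl counts may or may not be affected.

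Genes of the later steps were not called either. Hadha, the alpha subunit of the mitochondrial trifunctional protein, measured 124, 128 and 125 CPM in the controls, and 116, 101 and 122 CPM in the mutants. No mutant reached the lowest control, mutant 2 was farthest below, and the gene did not pass (-0.16 ± 0.10, edgeR adjusted p = 0.589). Hadh, the dehydrogenase for shorter chains, measured 123, 124 and 108 CPM in the controls, and 128, 121 and 134 CPM in the mutants, which overlapped (0.11 ± 0.10, edgeR adjusted p = 0.722). The intervals of 2 SE on either side ran from -0.36 to 0.05 for Hadha and from -0.09 to 0.32 for Hadh. Echs1, the short-chain hydratase, had -0.05 ± 0.10, and Acaa2, the mitochondrial thiolase, 0.11 ± 0.10.

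The 2 peroxisomal members had the lowest fold changes of the group. Ehhadh, the peroxisomal bifunctional enzyme, was at 15.04, 14.92 and 14.42 CPM in control libraries and 10.85, 9.05 and 10.98 in mutant libraries. All mutants lay below all controls, but the test was not passed over all genes (-0.52 ± 0.13, edgeR adjusted p = 0.0926, unadjusted p = 0.00282). Acaa1a, a peroxisomal thiolase, was at 18.8, 25.6 and 23.7 CPM in control libraries and 14.2, 14.9 and 21.0 in mutant libraries. Its groups overlapped through mutant 3 (-0.45 ± 0.17, edgeR adjusted p = 0.303), and 12.4% of its 50-base stretches are shared with Acaa1b.

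Of the transcription factors that govern these pathways 0 of 4 were called, against 2.06% of all genes, with a median of -0.20. Ppara, the nuclear receptor that switches on fatty acid oxidation in fasting, was at 4.51, 6.19 and 4.61 CPM in control libraries and 3.71, 2.20 and 3.89 in mutant libraries. Every mutant lay below every control at this low level, and the gene did not pass (-0.63 ± 0.27, edgeR adjusted p = 0.358). Ppard, its broadly expressed relative, had 0.24 ± 0.21. Srebf2, the factor of sterol synthesis, was at 32.8, 40.4 and 35.3 CPM in control libraries and 32.2, 30.7 and 30.8 in mutant libraries, with no overlap and no call (-0.21 ± 0.11, edgeR adjusted p = 0.457). Srebf1, the factor of fatty acid synthesis, measured 39.8, 35.2 and 34.3 CPM in the controls, and 34.6, 33.1 and 28.8 CPM in the mutants, which overlapped through mutant 1 (-0.18 ± 0.11, edgeR adjusted p = 0.570). Per kb of annotated exons Srebf1 and Srebf2 had like levels in controls, 6.47 ± 0.526 and 5.03 ± 0.544 CPM per kb, and Ppara and Ppard lay lower, at 1.33 ± 0.245 and 1.15 ± 0.323. The place of Ppard depended on the length used. With the median length of coding transcripts in place of all annotated exons, Ppard was at 5.41 and Ppara at 2.03, against 8.48 for Srebf1 and 7.93 for Srebf2.

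In fatty acid synthesis Scd1 fell while 0 of the 6 other genes were called, against 1.51% that fell over all genes. Scd1 was at 19.1, 35.2 and 42.0 CPM in control libraries and 9.14, 13.3 and 5.49 in mutant libraries. All mutants lay below all controls, and both groups were spread widely. The mean fell from 32.1 ± 11.8 to 9.32 ± 3.93 CPM, 3.51-fold lower (-1.81 ± 0.32, edgeR adjusted p = 0.0177). Scd2, a second stearoyl-CoA desaturase on the same chromosome that is abundant in newborn tissues, was at 150, 142 and 138 CPM in control libraries and 183, 130 and 175 in mutant libraries. It did not pass, and mutant 2 lay below all controls (0.18 ± 0.13, edgeR adjusted p = 0.646). For each 100 counts of Scd2 there were 12.8, 24.8 and 30.4 counts of Scd1 in controls and 4.99, 10.3 and 3.14 in mutants. The groups did not overlap in this ratio (two-sided exact permutation p = 0.1, the lowest value 3 against 3 can reach, adjusted 0.167 over 5 pairs). The 5 include the later added pair Hadhb and Hadha, and the test cannot decide whether the ratio differed. Like the Acot1 ratio, the Scd1 ratio rests on the same counts as the call and is no separate evidence. Per kb of exons Scd2 exceeded Scd1 in both groups, with 26.2 against 6.57 CPM per kb in controls and 29.8 against 1.91 in mutants. The Scd1 call was lost with a robust dispersion (edgeR adjusted p = 0.140) and without control 2 (0.0943), control 3 (0.0842), mutant 1 (0.0891) or mutant 3 (0.0658), with fold changes between -1.54 and -2.14 when any 1 library was left out.

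The enzymes upstream of the desaturases did not differ beyond their spread. Acly, which splits citrate to acetyl-CoA, measured 149, 165 and 170 CPM in the controls, and 179, 131 and 180 CPM in the mutants (0.02 ± 0.14, edgeR adjusted p = 0.979). Fasn, the fatty acid synthase, was at 47.6 ± 1.85 and 48.0 ± 8.34 CPM (0.01 ± 0.13, edgeR adjusted p = 0.987). In both genes mutant 2 was the lowest of the 6 libraries, at 131 and 39.7 CPM. The acetyl-CoA carboxylases Acaca (0.22 ± 0.27) and Acacb (0.20 ± 0.15) did not pass either. Elovl6, the elongase of palmitate, measured 5.86, 8.07 and 7.69 CPM in the controls, and 10.7, 6.38 and 10.2 CPM in the mutants, with mutant 2 among the controls (0.33 ± 0.22, edgeR adjusted p = 0.607). Acacb, the carboxylase placed at the mitochondrial surface, had a higher level per kb than the cytosolic Acaca in controls, 2.90 ± 0.354 against 0.384 ± 0.114. With the median length of coding transcripts in place of all annotated exons these became 3.24 and 0.707, and 30.4% of the Acaca stretches occur in other genes, so its counts may be too low.

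Sterol synthesis was represented by Hmgcs1, the cytosolic HMG-CoA synthase, and Sqle, squalene epoxidase. Hmgcs1 was at 34.9, 55.5 and 44.3 CPM in control libraries and 59.3, 37.5 and 56.2 in mutant libraries. Sqle was at 18.0, 35.6 and 25.9 CPM in control libraries and 36.8, 15.9 and 29.7 in mutant libraries. In both genes the libraries of a group differed more than the groups did, and control 1 and mutant 2 were the lowest of their groups. Neither was called (0.18 ± 0.20 and 0.05 ± 0.29, edgeR adjusted p = 0.782 and 0.975).

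Among the 10 genes of pyruvate and lactate metabolism Pcx fell, 0 rose and 9 did not pass, and 9 of the 10 fold changes were below 0. Over all genes 1.51% fell, and 6388 of 13017 fold changes were below 0. The signs of Pdk1 (-0.01) and Ldha (-0.09) were not stable, as alternatives gave values up to 0.16 and 0.08. The median of the 10 genes was -0.33, or -0.16 with library totals alone, where the median of all genes was 0.17. Pcx, which makes oxaloacetate from pyruvate, was at 18.0, 20.3 and 24.4 CPM in control libraries and 11.9, 8.82 and 12.7 in mutant libraries. Every mutant lay well below the lowest control. The mean fell from 20.9 ± 3.23 to 11.1 ± 2.04 CPM, 1.88-fold lower (-0.91 ± 0.17, edgeR adjusted p = 0.0206). None of its 50-base stretches occurs in another gene. The call was lost without control 2 (edgeR adjusted p = 0.0883), control 3 (0.0992) or mutant 1 (0.0757).

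Pyruvate dehydrogenase takes the other route into the cycle. Pdha1, its X-linked catalytic subunit, was at 126, 115 and 117 CPM in control libraries and 93.1, 98.4 and 98.5 in mutant libraries. The groups did not overlap, but the gene did not pass over all genes (-0.30 ± 0.09, edgeR adjusted p = 0.176, unadjusted p = 0.00876), and with library totals alone its fold change was -0.13. Of its exon bases 16.1% overlap Map3k15 on the other strand. Pdhb, the partner subunit, was at 35.8 ± 3.48 and 35.8 ± 1.89 CPM (0.00 ± 0.11). Of the kinases that switch the complex off, Pdk1 had -0.01 ± 0.09, Pdk2 -0.48 ± 0.19 and the fasting-induced Pdk4 -0.36 ± 0.18. Pdk2 was at 19.5, 28.3 and 30.2 CPM in control libraries and 16.9, 16.1 and 23.2 in mutant libraries, where control 1 lay among the mutants (edgeR adjusted p = 0.303). Per kb the order in controls was Pdk1 and Pdk2, at 8.61 ± 0.304 and 8.22 ± 1.79 CPM per kb and within their spread, then Pdk4 at 3.59 ± 0.594.

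Lactate dehydrogenase was mostly of the A form. Ldha was at 89.6, 80.5 and 77.8 CPM in control libraries and 87.5, 74.5 and 70.6 in mutant libraries (-0.09 ± 0.11, edgeR adjusted p = 0.814). Ldhb was at 6.32, 6.08 and 8.75 CPM in control libraries and 3.43, 6.50 and 3.89 in mutant libraries (-0.64 ± 0.27, edgeR adjusted p = 0.352). Mutant 2 lay among the Ldhb controls. Per kb Ldha was at 25.0 and Ldhb at 4.49 CPM per kb in controls, with 21.0% of the Ldhb stretches shared with another gene. The ratio of Ldhb to Ldha counts overlapped between groups (two-sided exact permutation p = 0.3). Phosphoenolpyruvate carboxykinase makes phosphoenolpyruvate from oxaloacetate, in mitochondria by Pck2 and in the cytosol by Pck1. Pck2 was at 55.9, 57.2 and 59.8 CPM in control libraries and 46.3, 51.3 and 50.9 in mutant libraries, with no overlap and no call (-0.22 ± 0.09, edgeR adjusted p = 0.346). Pck1 had 3, 23 and 26 counts in controls and 1, 8 and 1 in mutants, and its fitted fold change depends on few counts (-2.40 ± 0.79, edgeR adjusted p = 0.208). Without mutant 2 it passed (edgeR adjusted p = 0.0448).

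In the citric acid cycle 0 of 8 genes were called, against 2.06% of all genes. The fold changes ran from -0.15 to 0.12 with a median of 0.05. Idh2, the mitochondrial NADP-dependent isocitrate dehydrogenase, had the highest level per kb of all 53 members. It was at 234, 230 and 217 CPM in control libraries and 226, 168 and 220 in mutant libraries, where mutant 2 stood apart (-0.15 ± 0.13, edgeR adjusted p = 0.715). Its cytosolic counterpart Idh1 had 0.12 ± 0.12. Mdh1, the cytosolic malate dehydrogenase, measured 153, 129 and 122 CPM in the controls, and 137, 145 and 143 CPM in the mutants (0.07 ± 0.11, edgeR adjusted p = 0.859), and the mitochondrial Mdh2 had -0.06 ± 0.10. Ogdh, a subunit of the oxoglutarate dehydrogenase complex, measured 53.4, 56.6 and 59.9 CPM in the controls, and 65.9, 54.1 and 63.7 CPM in the mutants (0.11 ± 0.11, edgeR adjusted p = 0.742). Both genes overlapped between groups. Cs, citrate synthase, had 0.05 ± 0.10. Sdha, of succinate dehydrogenase, had 0.06 ± 0.10 and Fh1, fumarase, -0.01 ± 0.10. The widest interval of 2 SE in this group belonged to Idh2, from -0.41 to 0.11.

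Levels per length varied far more between members than between groups. Idh2 had 87.7 ± 3.49 CPM per kb of annotated exons in controls, followed by Acaa2 (52.9 ± 4.22) and Mdh1 (52.6 ± 6.29), which did not differ beyond their spread. Pdha1 (31.9 ± 1.51), Acly (30.6 ± 2.02), Acadl (29.7 ± 2.57) and Sdha (28.4 ± 1.77) came next, each within 1 SD of its neighbour, and then Scd2 (26.2 ± 1.07). At the low end lay Pck1 (0.534 ± 0.348), Acaca (0.384 ± 0.114) and Cpt1b (0.0285 ± 0.0494). Measured per kb of the median coding transcript, Idh2 stayed first and Hadh moved from rank 11 to rank 2 and Echs1 from rank 26 to rank 9. All annotated exons of Hadh cover 4.98 kb and those of Echs1 8.29 kb, against a median coding transcript of 1.79 and 1.56 kb. Hadhb, the beta subunit that is made from the gene next to Hadha in the opposite direction and assembles with it, had 1.06 ± 0.0782 CPM per kb against 14.4 ± 0.254 for Hadha. Per kb of the median coding transcript these became 3.41 and 31.4. Of the Hadhb stretches 19.7% occur in other genes, 18.1% in Gm13910, so its counts may be too low. How much of the gap this accounts for was not tested.

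**Figure D3:**
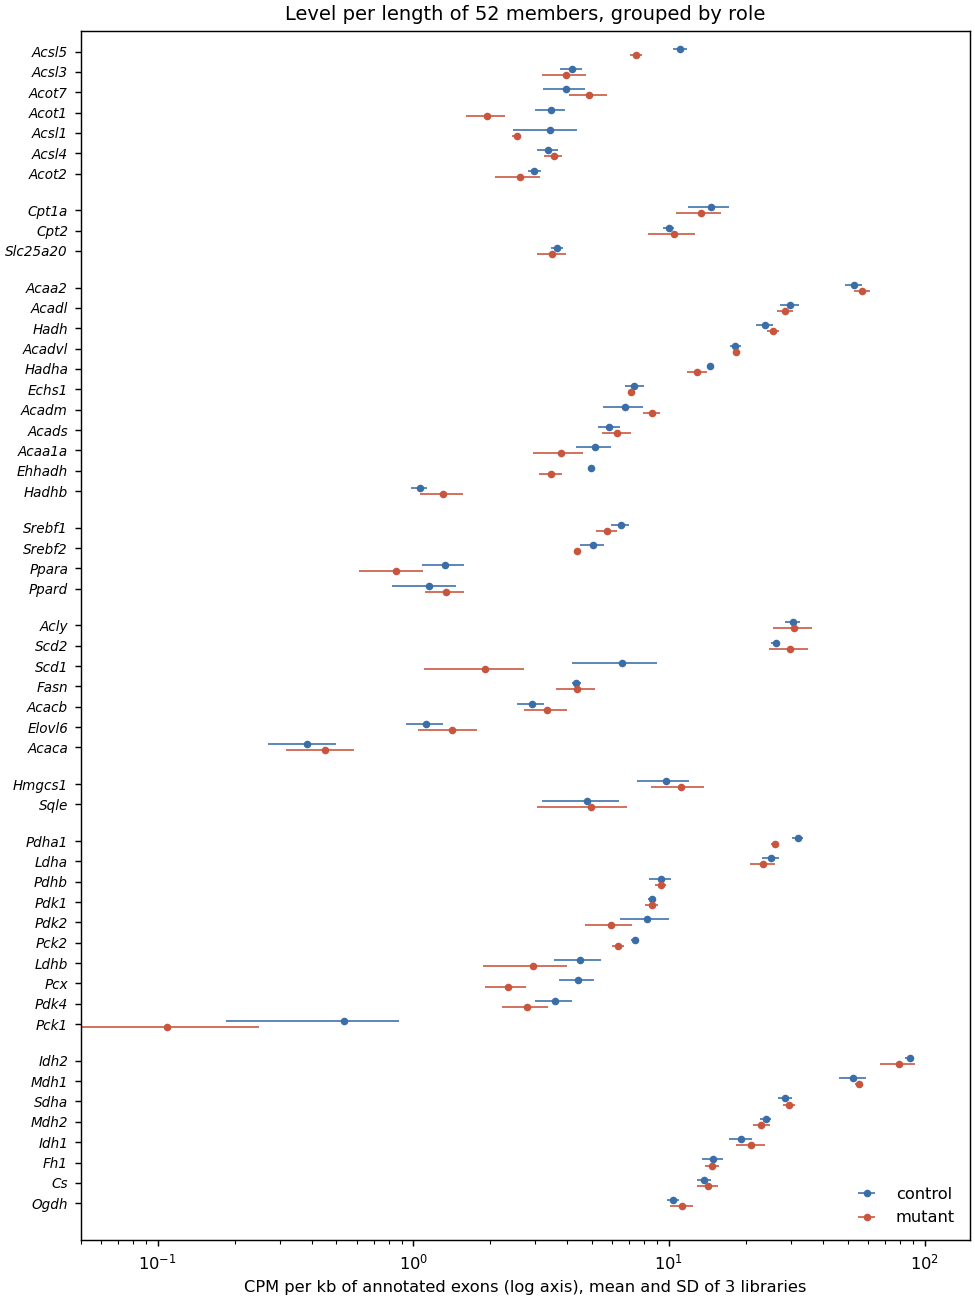
CPM per kb of annotated exons (horizontal log axis, mean and SD of 3 libraries, blue control and red mutant) for 52 members grouped by role, the mutant bar of Pck1 being cut at the left edge. Levels run from below 1 for Pck1 and Acaca to 87.7 for Idh2, and Scd1 shows the widest gap between groups among genes above 1.

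Other genes of these pathways came from lists that leave out the 53 members. Of 24 tested genes of mitochondrial oxidation 1 fell, of 24 peroxisomal genes 1, of 6 ketone body genes 1 and of 32 further pyruvate and cycle genes 1, with 0 higher in each. Of 23 genes of lipid synthesis 1 fell and 1 rose, of 17 targets of PPAR receptors 1 rose, and of 25 sterol genes and 21 glycolysis genes 0 were called. These shares stand beside the 2.06% of all genes called. Bdh1, the ketone body dehydrogenase, was at 6.01, 5.52 and 4.32 CPM in control libraries and 0.666, 1.28 and 1.30 in mutant libraries, 4.86-fold lower (-2.28 ± 0.32, edgeR adjusted p = 0.00439). Fbp2, the fructose bisphosphatase of muscle, was at 7.52, 8.84 and 4.61 CPM in control libraries and 0.476, 0.928 and 0.998 in mutant libraries, 8.64-fold lower (-3.11 ± 0.37, edgeR adjusted p = 0.00165). Both were called in all 15 alternatives.

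Slc27a1, a fatty acid transporter that also couples fatty acids to coenzyme A, was at 26.2, 41.7 and 38.0 CPM in control libraries and 20.1, 17.3 and 21.6 in mutant libraries (-0.85 ± 0.17, edgeR adjusted p = 0.0300). It missed the threshold in 6 of 15 alternatives (largest edgeR adjusted p = 0.153). These were scaling by library totals and omission of control 2, of control 3 or of any 1 mutant. Eci3, a peroxisomal enoyl-CoA isomerase, was at 2.26, 1.88 and 2.98 CPM in control libraries and 0.190, 0.00 and 0.299 in mutant libraries (edgeR adjusted p = 0.00736, or 0.0533 without mutant 1). Among polyunsaturated fatty acid enzymes the desaturase Fads2 fell (-0.57 ± 0.11, edgeR adjusted p = 0.0324) and the elongase Elovl2 rose (0.67 ± 0.14, edgeR adjusted p = 0.0359). Fads2 was at 27.8 ± 1.47 and 18.7 ± 1.97 CPM and Elovl2 at 13.2 ± 1.19 and 21.1 ± 2.65 CPM, with no overlap in either. Fads2 lost its call in 7 of 15 alternatives (edgeR adjusted p up to 0.171), when control 1, 2 or 3 or mutant 1 or 2 was left out, with library totals alone and with the replicate number as a block. Elovl2 lost it in 5 (up to 0.179), when control 1, 2 or 3 or mutant 1 or 3 was left out. The 1 PPAR target that rose was Fgf21, a metabolic hormone also induced by cell stress, from 0.714 ± 0.169 to 13.9 ± 2.49 CPM (4.30 ± 0.26, edgeR adjusted p = 2.3e-05).

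Several members are also strongly expressed in fat cells, and in whole-organ RNA fewer cells of a type and less RNA per cell cannot be told apart. Of 10 tested adipocyte markers 2, Fabp4 and Lgals12, fell and 0 rose, against 1.51% and 0.545% over all genes. Fold changes were below 0 in 8 of the 10 and above 0 in 2. The 14 markers summed to 302, 414 and 481 CPM in control libraries and 286, 265 and 311 in mutant libraries. Adipoq, the hormone adiponectin, was at 3.01, 10.1 and 14.6 CPM in control libraries and 0.00, 2.44 and 0.00 in mutant libraries. Scd1 followed the same order as Adipoq, lowest in control 1 among controls and highest in mutant 2 among mutants, and Pck1 was likewise lowest in control 1 and highest in mutant 2. The other members that fell, Acsl5, Acot1 and Pcx, were also lowest in control 1 among controls. Among mutants, however, they were lowest in mutant 2 (34.9, 6.27 and 8.82 CPM), as were Slc27a1 and the marker sum. The part of fat cells in the differences of the members, the 4 that fell included, and of Slc27a1 was not tested.

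**Figure D4:**
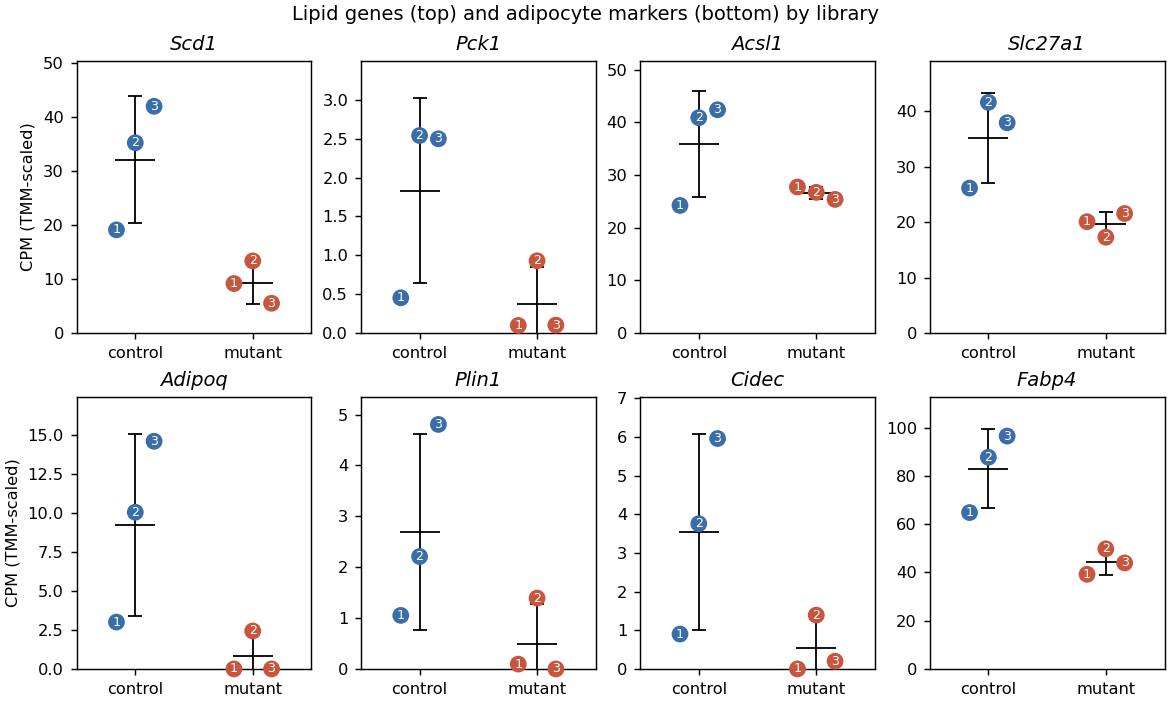
CPM by library (circles numbered by replicate, with mean and SD of 3) for Scd1, Pck1, Acsl1 and Slc27a1 in the top row and the adipocyte markers Adipoq, Plin1, Cidec and Fabp4 in the bottom row. Control 1 is the lowest control in all 8 panels, and mutant 2 is the highest mutant in 6 of them, the exceptions being Acsl1 and Slc27a1.

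Other marker lists gave these values, to be read beside the 1.51% of all genes that fell and the 0.545% that rose. Acinar markers summed to between 332967 and 365521 CPM in control libraries and between 278808 and 334867 in mutant libraries, with 1 of 12 lower. Duct markers summed to 653 to 731 CPM in control libraries and 448 to 616 in mutant libraries, with 0 of 9 called, endocrine markers to 3199 to 5214 and 3262 to 3555 CPM, with 1 of 11 lower, and macrophage markers to 239 to 288 and 287 to 401 CPM, with 2 of 9 higher and 1 lower. Fibroblast markers (3154 to 5105 and 3368 to 4750 CPM) and endothelial markers (228 to 251 and 243 to 262 CPM) had 0 of 8 called each, as did the tested markers of nerve and glia (11.3 to 13.2 and 11.4 to 18.1 CPM), erythroid cells (21.4 to 153 and 14.3 to 37.4 CPM), lymphocytes, muscle and brown fat (3.43 to 5.29 and 5.33 to 5.99 CPM). Hepatocyte markers summed to 106 to 151 and 127 to 231 CPM, with 1 of 4 higher. The part of these cell types in the members' differences was not tested.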

How the data were processed

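RNA sequencing libraries of 6 whole pancreata or pools (3 control, 3 mutant, grouped by their titles) were analysed. The authors deposited whole-number counts per gene symbol, 1 table per library. The tools and build named per the submitters' processing notes are HTSeq 0.6.1p1, STAR, cutadapt 1.13, DESeq2 and mm10, with no role stated. For the annotation, the strand setting and reads with several matches, the setting was not given in the sources used here.

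In R 4.3.3, edgeR 4.0.16 (glmQLFit and glmQLFTest, default filterByExpr filter, TMM, no covariate) compared the groups, with Benjamini-Hochberg adjustment over all 13017 genes and a threshold of 0.05. The SE of a log2 fold change is its size over the square root of F. The procedure was tested on simulated data. Total counts between 7304727 and 10773223 limit precision for genes near 1 CPM, and the 3 libraries per group limit it for the others. Chi-square values per degree of freedom between libraries of a group were at least 5.83, so all 6 were kept as separate samples. The members, lists and pairs were chosen with earlier results of these data known, and the ratio of Hadhb to Hadha was added after its values were seen. Named in full were members that were called and, in each role group, the 2 with the smallest p and the 2 with the highest mean, and pairs of related enzymes were compared. Of each other pathway list up to 3 called genes were named.

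Exon lengths, overlaps and 50-base stretches were taken from the GENCODE M21 annotation (GRCm38, to which mm10 corresponds), where all 53 members matched 1 gene. The 5 ratios of counts were compared by two-sided exact permutation tests. Alternatives were RLE size factors, library totals alone, TMM without acinar and abundant genes, DESeq2 1.42.0, a robust dispersion, other filters, a replicate block and leaving out each library. Leaving out control 1 and mutant 2 together was chosen after seeing the data.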

Additional observations from a re-analysis of the deposited data

How the results depend on the processing

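Over all genes tested with edgeR, 71 were higher and 197 lower, against 190 and 130 with library totals alone and 157 and 327 without control 1 and mutant 2 together. Leaving out 1 library gave between 27 and 99 higher and between 98 and 202 lower. The 4 members that fell became 2 with library totals alone, which left 0 of the acyl-CoA genes, and between 0 and 5 when 1 library was left out. In the same way, leaving out 1 library gave between 0 and 3 acyl-CoA genes, between 0 and 1 synthesis genes and between 0 and 2 pyruvate genes, and a robust dispersion gave 0 synthesis genes. Without control 1 and mutant 2 together 1 member was higher, the synthesis gene Scd2 (edgeR adjusted p = 0.0499), and 2 pyruvate genes were lower, Pcx and Pck1. All 4 calls kept their direction in all 15 alternatives and were kept with RLE size factors, DESeq2, both other filters and TMM without acinar and abundant genes. Fold changes lay between -0.41 and -0.62 for Acsl5, -0.67 and -0.96 for Acot1, -1.54 and -2.40 for Scd1 and -0.75 and -1.01 for Pcx. With the replicate number as a replicate block all 4 stayed below the threshold (edgeR adjusted p = 0.0467 for Acsl5, 0.0499 for Acot1, 0.0178 for Scd1 and 0.0222 for Pcx) and 241 genes were called in all. Deviations from the group means had r = 0.08, 0.03 and -0.07 between same-numbered libraries and between -0.11 and 0.11 between differently numbered ones. Deviations within a group sum to 0, which ties these values to each other. They cannot decide whether same-numbered libraries share more than a number. Of the 48 members not called, 20 changed sign in at least 1 alternative and 3, Acsl1, Scd2 and Pck1, were called in at least 1.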

Other observations

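Of the 5 tested members on chromosome 19, namely Acsl5, Cpt1a, Pcx, Scd1 and Scd2, 3 fell, which leaves Acot1 on chromosome 12 as the 1 other member that did. Over all 11822 tested genes that matched exactly 1 annotated gene, 16 of 411 on chromosome 19 fell (3.89%), the highest share of any chromosome, against 1.56% over all chromosomes. The members were not left out of these shares. The lower coordinates of Pcx, Scd1 and Acsl5 are 4510472, 44394455 and 55251938 (GRCm38), so the 3 lie far apart. This was seen after the values were known and was not tested.

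Hadha and Hadhb encode the subunits of 1 enzyme, and their ratio was added after its values were seen. For each 100 counts of Hadha there were 5.20, 5.42 and 5.995 counts of Hadhb in controls and 6.01, 10.1 and 7.22 in mutants. Mutant 1 (6.01) lay barely above control 3 (5.995). The two-sided exact permutation p was 0.1, the smallest that 3 against 3 allows, adjusted 0.167 over 5 pairs. Since the pair was picked by its values and p cannot be lower, this test cannot decide whether the groups differ.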
